A study of Homo sapiens with 3 samples.

Results

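The miR-99/100 and miR-125 families were examined in the small RNA-seq profile of Flp-In T-REx 293 cells, an HEK293-derived human embryonic kidney line. The rule took every table entry of 6 hairpins, hsa-mir-99a, hsa-mir-99b, hsa-mir-100, hsa-mir-125a, hsa-mir-125b-1 and hsa-mir-125b-2, with both arms. This gave 12 entries, which collapse to 11 mature miRNAs because both miR-125b hairpins yield an identical 5p arm, out of 2590 mature miRNAs in the table. Of the 11, 9 had a count in any library and the same 9 reached the mean of 10 counts used as a filter.

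There were 3 libraries, 1 per group. The control carried the lentiviral GFP vector without a hairpin, and the other lines carried a synthetic miR-1 or miR-122 hairpin in an intron of that GFP cassette, under a doxycycline-inducible CMV promoter. All lines, control included, were selected in 1 mg/mL Geneticin for 6 days and given 1 ug/mL doxycycline for 7 days. A test between lines cannot be made from single libraries, so no p-value is given and differences have no replicate check. Every interval below covers counting error only, and overlap between intervals does not show that values are equal. In bulk libraries, fewer cells that make a miRNA and less of it per cell cannot be told apart.

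The miRNAs of these families are known as an old, conserved arrangement in which a miR-99/100 hairpin, a let-7 hairpin and a miR-125 hairpin lie in tandem and can be made from a shared primary transcript. Vertebrates keep several copies of the arrangement. A miRNA recognises its targets mainly through its seed, bases 2 to 8 of the mature strand, and usually the 5p arm of these hairpins is the guide that is loaded into Argonaute while the 3p arm is degraded. MiR-99/100 are known repressors of mTOR and IGF1R, and miR-125, the vertebrate relative of worm lin-4, is known to target LIN28 and other regulators of differentiation and cell death.

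The 5p arms are shown because they carry nearly all counts and define both families. The sequences are from RefSeq (GRCh38.p14 table, in which all 11 members were found), written 5′ to 3′ with the seed in capitals.
miR-99a-5p: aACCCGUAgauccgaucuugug
miR-100-5p: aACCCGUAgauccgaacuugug
miR-99b-5p: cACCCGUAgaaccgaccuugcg
miR-125a-5p: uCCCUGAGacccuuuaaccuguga
miR-125b-5p: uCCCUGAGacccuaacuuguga

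The miR-99/100 5p arms shared a seed that no other mature miRNA of the RefSeq table held. MiR-99a-5p and miR-100-5p were identical at 21 of 22 bases and differed by U16A, counted from the 5′ end of miR-99a-5p. MiR-99b-5p was identical to miR-99a-5p at 18 of 22 bases, with the differences A1C, U11A, U16C and U21C. MiR-125a-5p, of 24 bases, and miR-125b-5p, of 22 bases, were identical over the first 13. Their seed was shared with miR-4319, which had 0 counts in all 3 libraries. The miR-99/100 sequence also resembles miR-10a-5p, the most abundant endogenous miRNA of each library, shown here for that resemblance with its seed in capitals.
miR-10a-5p: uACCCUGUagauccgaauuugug

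With base 6 of miR-10a-5p left out, it differed from miR-100-5p at 2 positions and from miR-99a-5p at 3. The seeds nevertheless differed, because the additional base of miR-10a-5p lies within its seed.

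The 3p arms are shown because their sequences differ between the miR-125b-1 and miR-125b-2 loci, whereas the mature 5p arm of both is identical.
miR-125b-1-3p: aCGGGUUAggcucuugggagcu
miR-125b-2-3p: uCACAAGUcaggcucuugggac
miR-99a-3p: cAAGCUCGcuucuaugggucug
miR-100-3p: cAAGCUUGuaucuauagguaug
miR-99b-3p: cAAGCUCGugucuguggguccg
miR-125a-3p: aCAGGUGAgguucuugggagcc

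The 3p arms of miR-99a and miR-99b shared a seed. The 3p arm of miR-100 differed from that of miR-99a within the seed, at C7U. The miR-125b-1, miR-125b-2 and miR-125a 3p arms each had a seed of their own.

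On GRCh37, MIR99A lies on chromosome 21 at 17911409 to 17911489 and MIR125B2 at 17962557 to 17962645, both on the plus strand within MIR99AHG, a long non-coding RNA gene. MIR99A was intronic in all annotated transcripts, whereas MIR125B2 overlapped an exon of at least 1 transcript. MIR100 lies on chromosome 11 at 122022937 to 122023016 and MIR125B1 at 121970465 to 121970552, both on the minus strand in introns of the long non-coding RNA gene MIR100HG. MIR99B lies on chromosome 19 at 52195865 to 52195934 and MIR125A at 52196507 to 52196592, both on the plus strand within SPACA6, a protein-coding gene. MIR99B was intronic, MIR125A overlapped an annotated SPACA6 exon, and both overlapped an exon of the antisense gene SPACA6-AS1. The map of the loci shows that the miR-125 hairpin starts 642 bases after that of miR-99b, but 51.1 kb after miR-99a and 52.5 kb after miR-100. A let-7 hairpin lies between them in each locus: MIRLET7C 734 bases after MIR99A, MIRLET7A2 5.71 kb after MIR100 and MIRLET7E 174 bases after MIR99B.

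**Figure D1:**
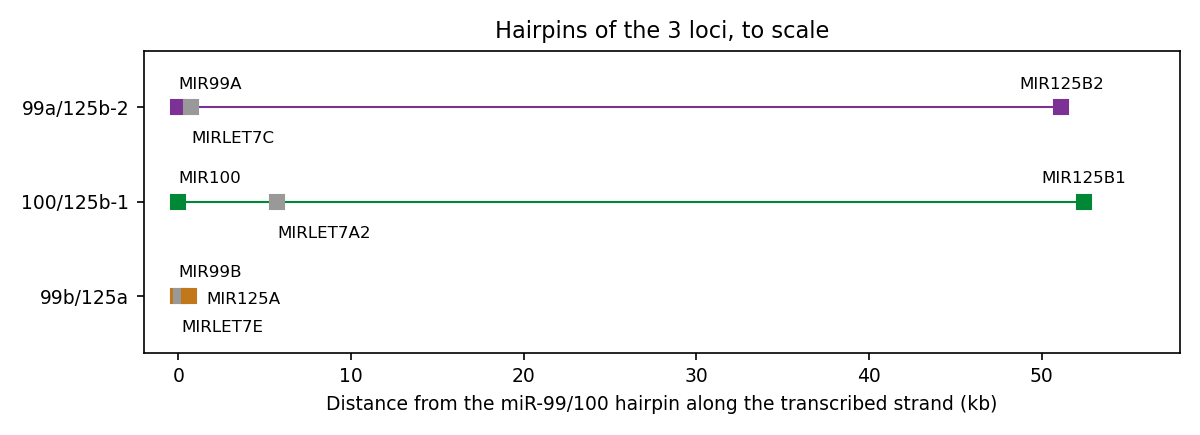
Hairpins of the 3 loci, drawn to scale along the transcribed strand; the x axis is the distance in kb from the start of the miR-99/100 hairpin, squares mark hairpins, and grey squares are let-7 hairpins. The miR-99b locus spans under 1 kb, whereas the other loci spread over 51.1 and 52.5 kb.

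Endogenous miRNAs (all but the 5 synthetic hairpins in the table) had 1636481 counts in the control, 1791702 in the miR-1 and 1947669 in the miR-122 library. Levels below are scaled CPM, for which library sizes were set by TMM over the 514 endogenous miRNAs with a mean of at least 10 counts, so that the induced miRNA does not enter the scale. A count of 0 allows up to 3 counts, or 1.78, 1.67 and 1.59 scaled CPM in control, miR-1 line and miR-122 line. The 4 miRNAs listed for the HEK293 line (miR-10a-5p, miR-10b-5p, miR-196a-5p and miR-196b-5p) were all abundant, with summed levels of 170972 to 203427 scaled CPM. The 5 blood-cell miRNAs summed to 8.90 to 14.4 scaled CPM, with miR-223-3p at 0 counts, and the 4 fibroblast or smooth muscle miRNAs to 73.7 to 106 scaled CPM, with miR-214-3p at 0 counts. Of the neuronal list, miR-9-5p was present at 4529 to 4767 scaled CPM, and miR-124-3p was listed only as a synthetic entry.

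Together the 11 members made up 2.31% of endogenous counts in the control, 2.38% in the miR-1 and 2.85% in the miR-122 library. The plot of levels by library shows their order. MiR-99a-5p and miR-99b-5p were the highest, between ranks 19 and 26 of all endogenous miRNAs in every library. MiR-125a-5p followed at ranks 44 to 53 and miR-125b-5p at ranks 81 to 91. Among the 3p arms, miR-99b-3p was the highest, at ranks 106 to 114, and miR-125b-2-3p the next, at ranks 165 to 185. MiR-125a-3p, miR-100-5p and miR-99a-3p had fewer than 100 counts in each library. MiR-100-3p and miR-125b-1-3p had 0 counts in all 3. These are levels of sequenced reads: ligation efficiency differs between miRNAs and was not calibrated, so the order between miRNAs is one of reads.

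**Figure D2:**
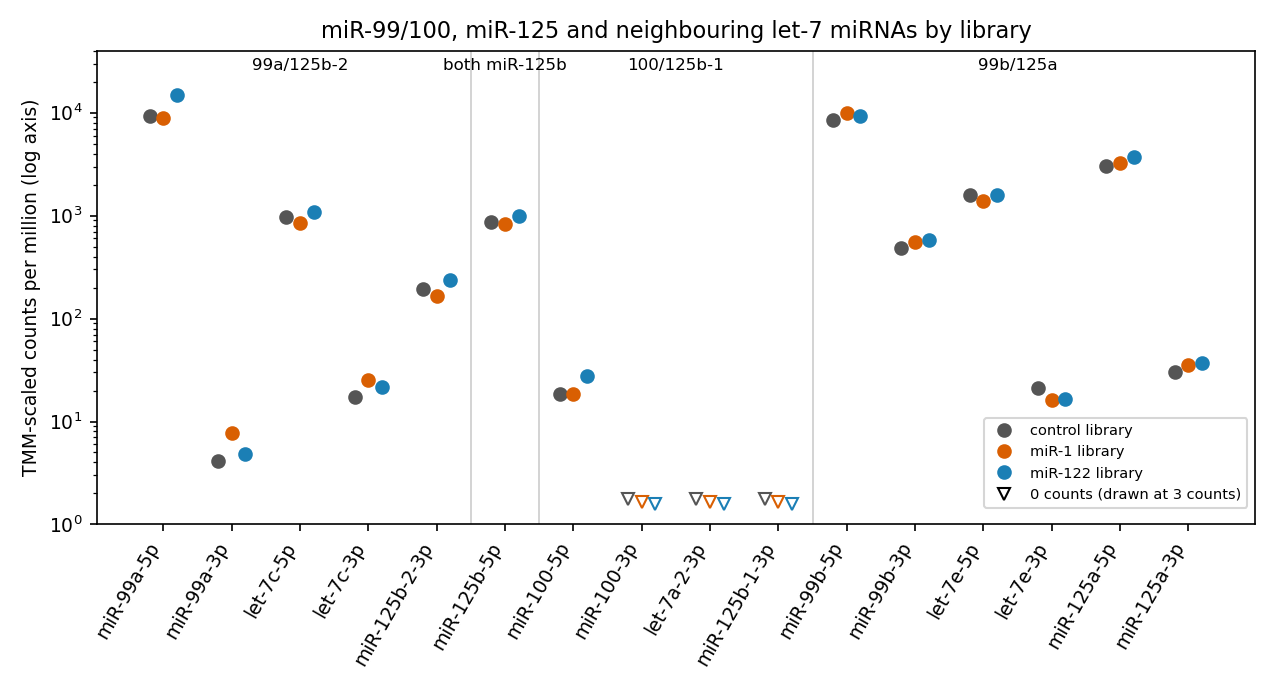
Scaled CPM (log axis) of the members and of the let-7 miRNAs beside them, 1 point per library, grouped by locus; open triangles are miRNAs with 0 counts, drawn at the level of 3 counts. The miR-99a and miR-99b 5p arms lie between 8504 and 14704, the miR-125b 5p arm, which both miR-125b hairpins share, lies between 830 and 982, and 3 of the 4 arms drawn for the miR-100 locus have 0 counts.

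The comparison of the 3 loci asked which of them the counts came from. Locus-specific counts left out miR-125b-5p, most of which cannot be assigned. The miR-99b/miR-125a locus had 20365 counts in the control, 24858 in the miR-1 and 25564 in the miR-122 library. The miR-99a/miR-125b-2 locus had 15952, 16257 and 28113. The miR-100/miR-125b-1 locus had 31, 33 and 52, all from miR-100-5p, beside which at least 15, 21 and 10 counts of miR-125b-5p were assigned to mir-125b-1 alone. So the miR-99a and miR-99b loci held nearly all assignable counts in every library, and their order differed: the miR-99b/miR-125a locus was the higher in the control and miR-1 libraries and the miR-99a/miR-125b-2 locus in the miR-122 library.

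Few counts marked the miR-100/miR-125b-1 locus. Its 3 locus-specific 3p arms, miR-100-3p, let-7a-2-3p and miR-125b-1-3p, had 0 counts in every library. MiR-125b-2-3p had 323 counts in the control, 301 in the miR-1 and 447 in the miR-122 library. Measured against the limit of 3 counts per library, it was at least 108-fold, 100-fold and 149-fold higher than miR-125b-1-3p. This compares the 3p arms only: the arm ratio of mir-125b-1 is not known, so the output of that hairpin cannot be read from its 3p arm. The absence of miR-100-3p also says little: at the arm ratio of miR-99a, the counts of miR-100-5p would correspond to 0.0139, 0.0290 and 0.0169 counts of the 3p arm.

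The counts of miR-100-5p were set against those of miR-99a-5p, from which it differs by 1 base. There were 0.198 counts of miR-100-5p per 100 counts of miR-99a-5p in the control library (95% exact interval 0.135 to 0.282), 0.207 in the miR-1 library (0.142 to 0.291) and 0.188 in the miR-122 library (0.140 to 0.247). These intervals overlapped but are wide. The ratio of miR-100-5p in miR-122/control had an interval that included equal levels (0.945 to 2.43). The counts therefore do not show whether miR-100-5p varied with miR-99a-5p. A miR-99a read with a base error or substitution at position 16 would match miR-100, and how many of the 31, 33 and 52 counts were such reads was not tested. Pairs that differ at 1 base were sought among endogenous miRNAs with a sequence in the RefSeq table, which has no entry for miR-10b-5p. In 15 such pairs the more abundant partner had a mean of at least 1000 counts. Among these 15, the pair of miR-100-5p and miR-99a-5p had the lowest ratio in each library. The next lowest was miR-18b-5p to miR-18a-5p, with 0.802, 0.506 and 0.422 counts per 100.

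MiR-125b-5p, summed over both hairpins, had 1471 counts in the control, 1491 in the miR-1 and 1848 in the miR-122 library. The counting divided a read that matched both hairpins evenly between them. The mir-125b-1 entry held 743, 756 and 929 counts and the mir-125b-2 entry 728, 735 and 919. The entries differed by 15, 21 and 10 counts, which is the least number of reads assigned to mir-125b-1 alone, or 1.02%, 1.41% and 0.541% of miR-125b-5p. The remaining counts do not tell the loci apart. Against its locus-specific 3p arm, miR-125b-5p had 4.55 counts per count of miR-125b-2-3p in the control (95% exact interval 4.03 to 5.15), 4.95 in the miR-1 (4.37 to 5.63) and 4.13 in the miR-122 library (3.73 to 4.59). These intervals overlapped.

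The arms of each hairpin were compared next. The 5p arm held most counts of every hairpin entry, but its excess differed widely among entries. Of mir-99a counts, miR-99a-5p held 99.96% in the control (95% Wilson interval 99.91% to 99.98%), 99.91% in the miR-1 and 99.97% in the miR-122 line, with only 7, 14 and 9 counts of miR-99a-3p. For miR-99b the share was 94.6% in the control (94.2% to 94.9%), 94.8% in the miR-1 and 94.1% in the miR-122 library, with 821, 986 and 1087 counts of miR-99b-3p. The 3p arm of miR-99b thus took 5.42%, 5.19% and 5.87% of its hairpin's counts, far above the 0.0448%, 0.0877% and 0.0325% of miR-99a-3p, although the mature 3p arms are identical at 18 of 22 bases. For miR-125a the 5p share was 99.02%, 98.91% and 99.01%, with 51, 64 and 70 counts of miR-125a-3p. For both miR-125b hairpins together it was 82.0%, 83.2% and 80.5%, lower than for the hairpins above. By entry it was 69.3%, 70.9% and 67.3% for mir-125b-2 and 100% in each library for mir-125b-1. These entries rest on an even division of shared 5p reads, so the share of either miR-125b hairpin alone is not known. Within each hairpin the Wilson intervals of the control overlapped with those of the other libraries. Those of miR-99b did not overlap between the miR-1 library (94.49% to 95.12%) and the miR-122 library (93.78% to 94.46%).

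The next comparison asked whether the members differed between the lines. MiR-99a-5p was higher in the miR-122 library. It had 15622 counts in the control, 15942 in the miR-1 and 27657 in the miR-122 library, or 9273, 8871 and 14704 scaled CPM. The control and miR-1 levels lay close together and the miR-122 level stood above both. The ratio of miR-122/control was 1.59-fold (95% exact interval 1.55 to 1.62), a log2 ratio of 0.67. With the total endogenous count as the scale it was 1.49-fold, which is below the 1.5-fold limit used here. The ratio of miR-1/control was 0.957-fold (0.936 to 0.978), a log2 ratio of -0.064. As deposited, in RPM of all miRNA counts, the values were 9544, 5511 and 10731; in that unit the synthetic hairpins take 38.1% of the miR-1 library and 24.4% of the miR-122 library.

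This difference was seen against the spread of all 514 endogenous miRNAs. That spread, a robust standard deviation taken from the median absolute deviation of the log2 ratios, was 0.31 for miR-1/control, 0.52 for miR-122/control and 0.42 for miR-1/miR-122. At 0.67, miR-99a-5p lay beyond 1 spread of miR-122/control, at place 47 from the highest of 514. Among the 108 endogenous miRNAs with a mean of at least 1000 counts, a limit chosen after the data were seen, the spread was 0.40 and miR-99a-5p was at place 3 from the highest. In miR-1/miR-122, its log2 ratio of -0.73 was the lowest of those 108. By size in either direction, miR-99a-5p was at place 116 of 514 and 11 of 108 in miR-122/control. In miR-1/miR-122 it was at place 4 of 108 by size.

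MiR-99b-5p had 14326 counts in the control, 18011 in the miR-1 and 17416 in the miR-122 library, or 8504, 10023 and 9259 scaled CPM. Its level was highest in the miR-1 library, where miR-99a-5p was lowest. The ratio to control was 1.18-fold in the miR-1 library (95% exact interval 1.15 to 1.20) and 1.09-fold in the miR-122 library (1.06 to 1.11). Both log2 ratios, 0.24 and 0.12, lay within the spread of all 514 endogenous miRNAs. Among the 108 with a mean of at least 1000 counts, the spread of miR-1/control was 0.18 around a median of -0.031, and miR-99b-5p at 0.24 lay beyond 1 spread, at place 6 from the highest. By size in either direction it was at place 15 of those 108.

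The shares of the miR-99/100 family followed from these differences. As a ratio within a library, a share does not depend on the scaling between libraries. MiR-99a-5p held 52.1% of the family's 5p counts in the control (95% Wilson interval 51.5% to 52.7%), 46.9% in the miR-1 library (46.4% to 47.4%) and 61.3% in the miR-122 library (60.8% to 61.7%). MiR-99b-5p held 47.8%, 53.0% and 38.6%, and miR-100-5p 0.103%, 0.0971% and 0.115%. The leading member was therefore miR-99a-5p in the control and miR-122 libraries and miR-99b-5p in the miR-1 library. Expressed as a ratio, there were 1.09 counts of miR-99a-5p per count of miR-99b-5p in the control, 0.885 in the miR-1 and 1.59 in the miR-122 library. As the members share a seed, the summed 5p level of the family is also given: 17795, 18913 and 23991 scaled CPM in control, miR-1 line and miR-122 line. The sum was 1.06-fold the control in the miR-1 library (95% exact interval 1.05 to 1.08) and 1.35-fold in the miR-122 library (1.33 to 1.37).

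**Figure D3:**
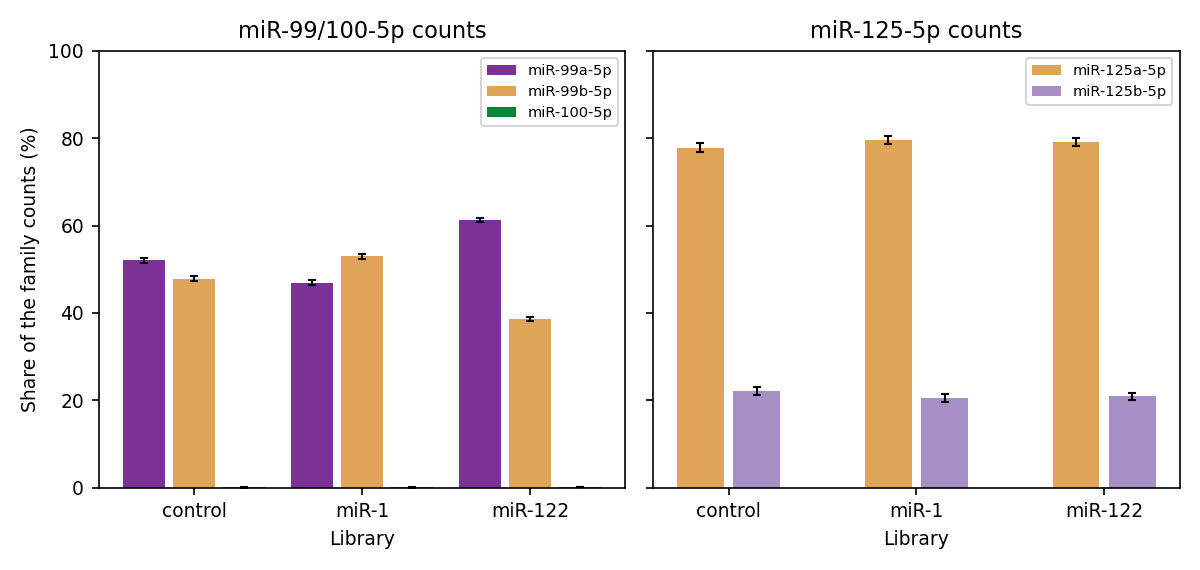
Share of each 5p member in the counts of its seed family (y axis, percent) in each library, with 95% Wilson intervals for counting error. MiR-99a-5p lies between 46.9% and 61.3% and trades places with miR-99b-5p, while miR-125a-5p stays between 77.8% and 79.5% of the miR-125 family; miR-100-5p is too low to see.

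The miR-125 family was more even between libraries. MiR-125a-5p had 5167 counts in the control, 5797 in the miR-1 and 6991 in the miR-122 library, or 3067, 3226 and 3717 scaled CPM. The ratio to control was 1.05-fold in the miR-1 (95% exact interval 1.01 to 1.09) and 1.21-fold in the miR-122 library (1.17 to 1.26). MiR-125b-5p was at 873, 830 and 982 scaled CPM, 0.950-fold (0.884 to 1.02) and 1.13-fold (1.05 to 1.21) of the control. Both members were thus highest in the miR-122 library, by amounts within the spread of all endogenous miRNAs. MiR-125a-5p held 77.8% of the family's 5p counts in the control (95% Wilson interval 76.8% to 78.8%), 79.5% in the miR-1 library (78.6% to 80.5%) and 79.1% in the miR-122 library (78.2% to 79.9%), and these intervals overlapped. The summed 5p level was 3940, 4056 and 4699 scaled CPM, so that miR-99/100 5p arms outnumbered miR-125 5p arms in every library.

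The lower members had wider intervals. MiR-100-5p had a ratio of 0.997-fold in miR-1/control (95% exact interval 0.593 to 1.68) and 1.49-fold in miR-122/control (0.945 to 2.43), and neither interval excluded equal levels. MiR-125b-2-3p was at 192, 168 and 238 scaled CPM, 0.874-fold (0.744 to 1.03) and 1.24-fold (1.07 to 1.43) of the control. MiR-99b-3p was at 487, 549 and 578 scaled CPM, 1.13-fold (1.02 to 1.24) and 1.19-fold (1.08 to 1.30), beside 1.18-fold and 1.09-fold for its 5p arm. MiR-125a-3p was at 30.3, 35.6 and 37.2 scaled CPM, and both of its intervals included equal levels. MiR-99a-3p rests on at most 14 counts, so its ratio of 1.81-fold in miR-1/control had an interval from 0.708 to 5.49.

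Counted with a limit of 1.5-fold in either direction, 1 of 9 members was apart in miR-1/control (miR-99a-3p, on 7 and 14 counts, and 0 of 9 with a pseudocount of 5), against 16.7% of all 514 endogenous miRNAs. In miR-122/control it was 1 of 9 (miR-99a-5p, 0 of 9 with the total endogenous count), against 27.0%, and in miR-1/miR-122 it was 2 of 9 (miR-99a-5p and miR-99a-3p), against 23.2%. These shares are close to or below the background. The 514 miRNAs split into 38 higher and 48 lower in miR-1/control, 58 and 81 in miR-122/control and 72 and 47 in miR-1/miR-122. With the total that holds the induced miRNAs as the scale, the splits were 7 and 349, 15 and 239, and 41 and 105, and the total endogenous count gave 45 and 100 for miR-122/control. On the scale that holds the induced miRNAs, 5 of 9 members were apart in miR-1/control, all lower, 0 of 9 in miR-122/control and 3 of 9 in miR-1/miR-122, all lower. At 2-fold, 0 of 9 members were apart in each comparison, against 3.31%, 9.73% and 8.56% of all endogenous miRNAs. The median log2 ratio of the 9 was 0.073 in miR-1/control and 0.28 in miR-122/control, beside -0.0021 and -0.037 over all 514. All 9 were above 0 in miR-122/control, as were 240 of all 514, and 5 of 9 were above 0 in miR-1/control, as were 256 of all 514. The comparisons share the control library, and members of a family or hairpin are not independent measurements.

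**Figure D4:**
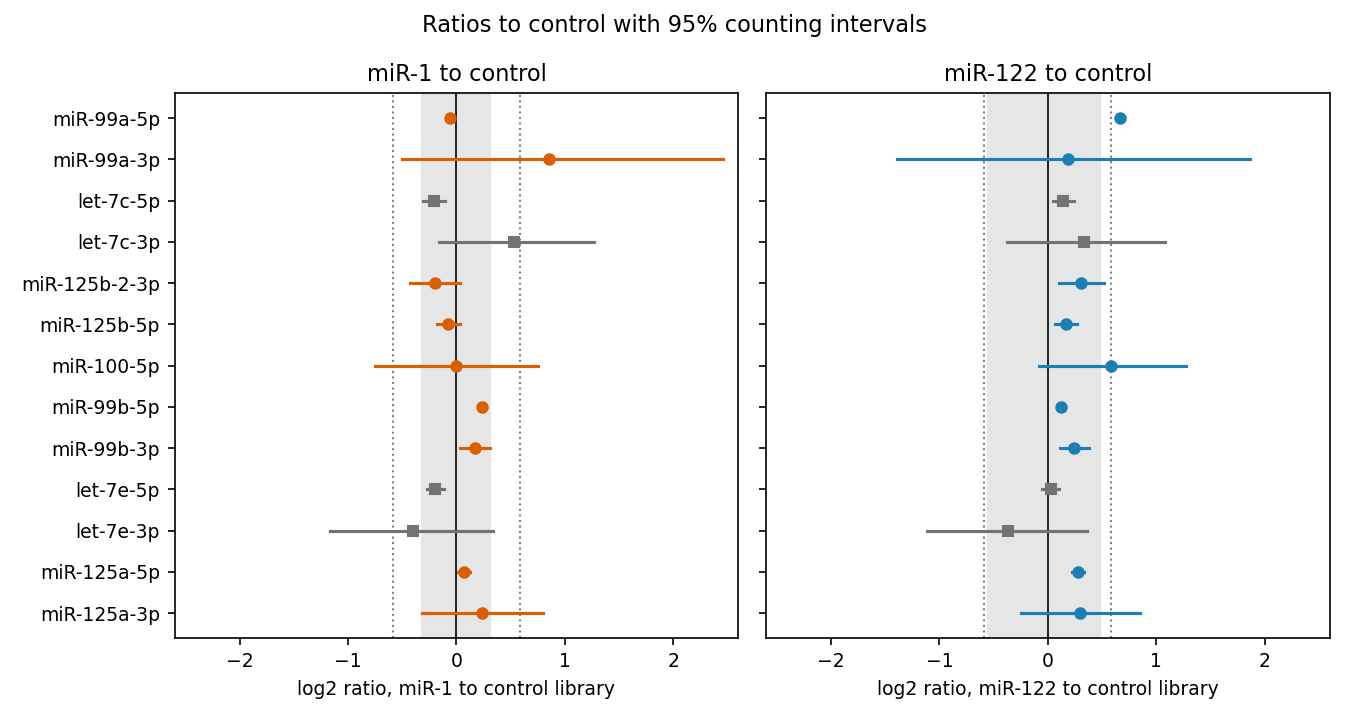
Log2 ratio of the miR-1 (left) and miR-122 (right) library to the control for members (circles) and neighbouring let-7 miRNAs (grey squares) with a mean of at least 10 counts; lines are 95% exact counting intervals, the grey band is 1 spread around the median of all 514 endogenous miRNAs, and dotted lines mark 1.5-fold. MiR-99a-5p at 0.67 in miR-122/control is the point with a narrow interval outside the band.

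Members of the same locus were then set beside each other, together with the let-7 miRNAs between them, which are known growth-restraining miRNAs that are opposed by LIN28. In the miR-99a/miR-125b-2 locus, let-7c-5p was at 975, 846 and 1076 scaled CPM in control, miR-1 line and miR-122 line, 0.868-fold (95% exact interval 0.809 to 0.931) and 1.10-fold (1.03 to 1.18) of the control. Its other arm, let-7c-3p, had 29, 45 and 41 counts and stood at 1.45-fold (0.892 to 2.41) and 1.26-fold (0.768 to 2.11), both intervals including equal levels. The 1.59-fold ratio of miR-99a-5p in miR-122/control thus stood beside 1.10-fold for let-7c-5p, 1.24-fold for miR-125b-2-3p and 1.13-fold for miR-125b-5p. Within libraries there were 9.52 counts of miR-99a-5p per count of let-7c-5p in the control (9.04 to 10.0), 10.5 in the miR-1 (9.95 to 11.1) and 13.7 in the miR-122 library (13.1 to 14.3). Per count of miR-125b-2-3p there were 48.4 (43.3 to 54.2), 53.0 (47.3 to 59.6) and 61.9 (56.4 to 68.1). For both ratios the control and miR-122 intervals did not overlap. Between these libraries, miR-99a-5p thus differed more than let-7c-5p and miR-125b-2-3p did, by more than counting error. By contrast, miR-125b-2-3p per count of let-7c-5p was 0.197 (0.174 to 0.222), 0.198 (0.174 to 0.224) and 0.221 (0.199 to 0.245), with overlapping intervals. For let-7c-3p, and for miR-99a-3p at 1.13-fold (0.382 to 3.64), the miR-122/control intervals include 1.59-fold, so the counts do not separate them from miR-99a-5p.

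In the miR-99b/miR-125a locus, the 3 hairpins lie within 1 kb and their ratios also differed. Let-7e-5p was at 1575, 1375 and 1603 scaled CPM, 0.873-fold (95% exact interval 0.826 to 0.922) in miR-1/control, where miR-99b-5p was 1.18-fold and miR-125a-5p 1.05-fold. There were 5.40 counts of miR-99b-5p per count of let-7e-5p in the control (5.18 to 5.63), 7.29 in the miR-1 (6.99 to 7.60) and 5.78 in the miR-122 library (5.56 to 6.01). MiR-99b-5p per count of miR-125a-5p was 2.77 (2.69 to 2.86), 3.11 (3.02 to 3.20) and 2.49 (2.42 to 2.56), in which none of the intervals overlapped. MiR-99b-5p was thus highest relative to both neighbouring 5p arms in the miR-1 library. Let-7e-3p had 36, 29 and 31 counts, 0.758-fold (0.447 to 1.27) and 0.773-fold (0.461 to 1.28) of the control, and both intervals included equal levels. Let-7a-5p, at 19388, 20561 and 25107 scaled CPM, comes from 3 hairpins and cannot be assigned to the miR-100/miR-125b-1 locus.

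Summed over its locus-specific miRNAs, the miR-99a/miR-125b-2 locus was 0.955-fold the control in the miR-1 library (95% exact interval 0.935 to 0.977) and 1.58-fold in the miR-122 library (1.55 to 1.61). The miR-99b/miR-125a locus was 1.14-fold (1.12 to 1.17) and 1.12-fold (1.10 to 1.15). The miR-100/miR-125b-1 locus was 0.997-fold (0.593 to 1.68) and 1.49-fold (0.945 to 2.43). In the miR-1 library the miR-99a and miR-99b loci differed from the control in opposite directions, whereas in the miR-122 library both were higher. The log2 ratios in miR-1/control, -0.066 and 0.19, both lay within the spread of all 514 endogenous miRNAs (0.31). Of 257 other endogenous miRNAs with a mean of at least 100 counts, those nearest to the miR-99a/miR-125b-2 locus in the pair of log2 ratios to control were miR-96-5p, miR-25-5p and miR-425-5p, at distances of 0.086, 0.14 and 0.19 (log2). The miR-99b/miR-125a locus had 11 miRNAs within a distance of 0.1, of which miR-148a-5p, miR-10b-5p and miR-629-5p were the nearest. For the miR-100/miR-125b-1 locus the nearest were miR-96-5p, miR-25-5p and miR-424-3p. That locus has only 31, 33 and 52 counts, and with the wide intervals given above its nearest miRNAs are not determined. The measure rests on 3 libraries only.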

How the data were processed

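Each of the 3 lines gave 1 small RNA library, from 1000 ng of RNA. Adapter-trimmed reads of at least 18 nt were collapsed and counted by the authors with miRDeep2 (version not given in the sources used here) on miRBase release 21 hairpins plus their synthetic hairpins, with a read that matched several hairpins divided among them. The deposited estimated counts were used with fractions kept, which the member entries lacked; rounded counts entered only intervals. The RPM values deposited by the authors equal counts over the library total within 0.00652. A pooled total was not used.

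Counts were summed over hairpins. Libraries were scaled by TMM (edgeR 4.0.16, R 4.3.3) over endogenous miRNAs that averaged 10 counts or more, with a pseudocount of 0.5 in log2 ratios. Ratios carry 95% exact conditional (Clopper-Pearson) and shares 95% Wilson intervals; both ignore error in the scaling and cover counting error only, as reads had no molecular identifiers. The text names all members, their let-7 neighbours, miR-10a-5p, miR-10b-5p, seed relatives and the 3 nearest patterns of each locus. Members, lists and limits were chosen with earlier results of these data known; other miRNAs named were chosen after their values were seen or belong to fixed marker lists. Alternatives were DESeq2 1.42.0 size factors, total counts, other filters and pseudocounts, 2-fold, the highest hairpin, and 5p or both arms. The scaling was tested on simulated data. Coordinates are from GENCODE on GRCh37, the build named in the submitters' processing notes being hg19.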

Additional observations from a re-analysis of the deposited data

Results flagged for a closer look

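MiR-99a-5p differed from the control in opposite directions in the 2 induced lines, with a log2 ratio of -0.064 in miR-1/control and 0.67 in miR-122/control. The locus-specific sum of the miR-99a/miR-125b-2 locus, which is nearly all miR-99a-5p, did the same at -0.066 and 0.66. Each direction rests on 1 library, the control is shared, and the difference between the lines was not tested; a ratio of -0.064 is well within the spread of all endogenous miRNAs.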

How the results depend on the processing

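No paired analysis was possible because there were no replicates to pair. The scaling on miRNAs with a mean of at least 1000 counts was added after the data were seen. Unless the construction of a scaling shows it, the cause was not tested. Values are given for miR-1/control, then miR-122/control, then miR-1/miR-122.

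A scale that holds the induced miRNAs (the whole library total) moved the median log2 ratio of all endogenous miRNAs to -0.73, -0.53 and -0.22. By the same construction it moved the miR-99a/miR-125b-2 locus to -0.79, 0.16 and -0.96 and turned the miR-99b/miR-125a locus to -0.53, -0.33 and -0.21. Relative to the median of all, a change of library scale cancels, so the values are the same as under TMM by arithmetic. They are -0.064, 0.70 and -0.73 for the former locus and 0.20, 0.21 and 0.015 for the latter. The scale that holds the induced miRNAs also turned miR-99b-5p (-0.49, -0.37 and -0.12). Against control it turned miR-99b-3p (-0.56 and -0.25) and miR-125a-5p (-0.66 and -0.22), and, in miR-122/control, miR-125b-2-3p (-0.19) and miR-125b-5p (-0.33). No other alternative turned a ratio whose counting interval excluded 0.

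The total endogenous count gave -0.10, 0.57 and -0.67 for the miR-99a/miR-125b-2 locus and 0.16, 0.077 and 0.080 for the miR-99b/miR-125a locus. TMM on miRNAs with a mean of at least 100 gave -0.029 and 0.23 for these loci in miR-1/control, and on those with at least 1000 it gave 0.62 and 0.13 in miR-122/control and -0.66 and 0.093 in miR-1/miR-122. With miR-99b alone the miR-99b/miR-125a locus was at 0.23, 0.13 and 0.10.

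Of all endogenous miRNAs, 86, 139 and 119 were at least 1.5-fold apart. The count was 356 and 254 (against control) with the total that holds the induced miRNAs, 606, 674 and 672 without a filter, 14, 45 and 34 at a mean of at least 100, 0, 15 and 10 at a mean of at least 1000, 17, 50 and 44 at 2-fold, and 51 in miR-1/control with a pseudocount of 5. Of members, 1, 1 and 2 were apart. The count was 5 and 0 (against control) with the total that holds the induced miRNAs, 0 in miR-122/control with the total endogenous count, 2 there with DESeq2 size factors, 0 and 1 in the comparisons with miR-1 at a mean of at least 100, at a mean of at least 1000 and with a pseudocount of 5, and 0 in each at 2-fold.

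Counting both arms gave miR-99a 50.7%, 45.6% and 59.9%, miR-99b 49.2%, 54.3% and 40.0%, miR-125a 74.4%, 76.6% and 75.5% and miR-125b 25.6%, 23.4% and 24.5% of their families in control, miR-1 line and miR-122 line. The highest hairpin alone, which drops part of miR-125b-5p, gave miR-125a-5p 87.4%, 88.5% and 88.3% and miR-125b-5p 12.6%, 11.5% and 11.7%. Rounding changed no arm share. Ratios of miR-99a-3p, miR-100-5p and miR-125a-3p are limited by their counts of under 100.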
